A study of Mus musculus with 12 samples.

Results

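RNA levels of thymic natural killer T (NKT) cells were compared between 3 libraries of double-negative (DN) origin, titled cKO, and 3 libraries of double-positive (DP) origin, titled YFP+. These are 6 of the 12 libraries of the series, and the other 6 come from liver. All mice were C57BL/6 and carried E8III-Cre, a recombinase under an enhancer of the Cd8 genes that acts in DP thymocytes. In the cKO mice this Cre deletes a floxed Rag2 gene, which cells need to assemble an antigen receptor, so a receptor can form only before the deletion. In the YFP+ mice it removes the stop cassette of a Rosa26 reporter. Both groups were depleted of CD4+, CD8+ and DP thymocytes and then sorted as 7AAD-, CD45R-, CD4- and CD8- cells positive for CD1d dimer and for TCR beta. NKT cells that express CD4 therefore lie outside the comparison, and the stated gate does not include the reporter's own fluorescence. Age, sex and the number of mice behind a library are not given in the sources used here. Nothing in the labels ties a replicate to a mouse of its own, so the p-values cover the spread between these samples, and that spread may be technical. Only the cKO mice lose Rag2, so origin and mouse genotype cannot be told apart.

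NKT cells are T cells whose nearly invariant receptor recognises lipids held by CD1d. They are selected on other thymocytes and leave selection with effector genes already switched on, under the transcription factor PLZF. The comparison asks which genes distinguish NKT cells made without a DP stage from NKT cells made with one. Subset markers and NK receptors are only touched on here, and the account is of other functions: protein folding, immediate early genes, signalling, membranes, metabolism and gene regulation.

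Values are FPKM, fragment counts corrected for the length of the transcript and the size of the library. Of 23284 listed genes, the 9097 whose mean over these 6 libraries reached 1 FPKM were tested with limma on log2(FPKM + 1) after scaling each library by its median ratio to the others. A gene is called at a Benjamini-Hochberg adjusted p of at most 0.05, and changes are given as cKO minus YFP+ on this log2 scale, which understates the change of low genes. Levels quoted per library are FPKM as deposited, always for cKO replicates 1, 2 and 3 and then YFP+ replicates 1, 2 and 3. Read totals are not part of the table, which leaves each library's depth unknown. In bulk RNA, fewer cells of a type and less RNA per cell cannot be told apart.

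Rag2, the deleted gene, was listed at 0 in 5 of the 6 libraries and at 0.015 FPKM in cKO replicate 2, and Rag1, its partner in the recombinase, did not exceed 0.081 FPKM. Mature NKT cells of either origin thus carried too little of both RNAs for this to check the labels.

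Of the 9097 genes tested 812 were called, which is 8.93%. Of these 452 (4.97%) were higher and 360 (3.96%) lower in cKO cells. The median change over all genes was -0.002, the median size over the called genes was 0.562, and 165 called genes changed by at least 1 on the log2 scale, 84 of them upwards and 81 downwards. The 3 cKO values lay wholly above or below the 3 YFP+ values after scaling for all 812 called genes, and the same held for 28.9% of all genes tested. A lack of overlap stated for a called gene below therefore adds nothing to its call. An unadjusted p under 0.05 was reached by 22.9% of all genes tested. In each of the 6 fits that left out 1 library, 310 of the 812 genes stayed called, 167 higher and 143 lower. The split between directions depends on the scaling: with values as deposited the median gene lay at -0.164 and 1429 genes were called, 240 higher and 1189 lower, so that 16.8% of calls were upward in place of 55.7%. As shares of all genes tested these were 15.7%, 2.64% higher and 13.1% lower. Quantile normalization called 9.17% (4.43% higher and 4.74% lower). Changes below are relative to the median gene.

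**Figure D1:**
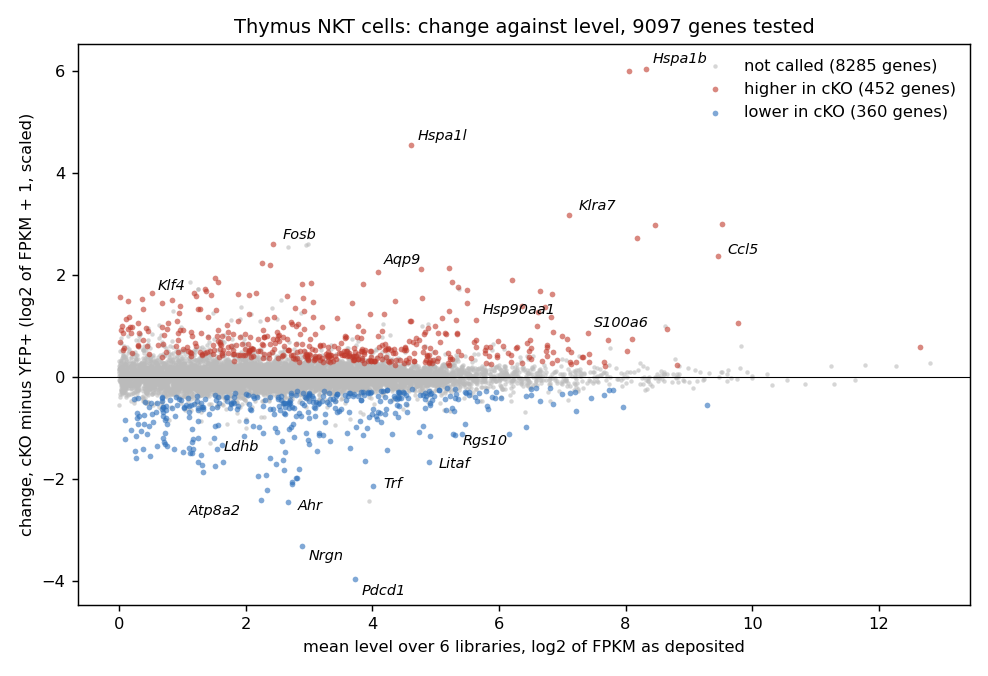
Change (cKO minus YFP+, log2 of FPKM + 1 after scaling, y axis) against mean level (log2 of FPKM as deposited, x axis) for each of the 9097 genes tested, with 452 higher genes in red and 360 lower genes in blue. Hspa1b lies at 6.02 and Pdcd1 at -3.97, and most called genes lie within 1 of the zero line.

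The cKO replicate 1 library stood apart from the other 5, and its value stands first wherever levels are given per library. At 31 genes it lay at least 1 log2 unit away from all 5 others, 30 above and 1 below. The same count was 10 for cKO replicate 2, 6 for cKO replicate 3, and 4, 1 and 6 for the YFP+ replicates. Of the 812 called genes, cKO replicate 1 was the cKO library nearest to the YFP+ mean for 370 (45.6%), against 182 for replicate 2 and 260 for replicate 3. Across genes, cKO replicate 1 correlated with the other cKO libraries at 0.971 and 0.980 (Pearson r of the log2 values), and those correlated with each other at 0.988. YFP+ libraries correlated among themselves at 0.989 to 0.991.

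Of the 31 genes that set cKO replicate 1 apart, 17 were on the list of type I interferon-stimulated genes and 4 on the erythroid list, all globins. Hbb-b1, a beta-globin gene, was at 40.8, 0.034 and 5.51 FPKM in cKO and at 0.03, 0.322 and 0.071 in YFP+. Hba-a1, an alpha-globin gene, was at 12.6, 0 and 1.57 against 0, 0.07 and 0 FPKM. Both were highest in cKO replicate 1, present in replicate 3 and near 0 in the other 4 libraries, and they share reads with near-identical copies. Ifi27l2a, an interferon-stimulated gene, was at 269.7, 33.8 and 74.1 FPKM in cKO and at 126, 119.9 and 121 in YFP+. Usp18, which removes the ubiquitin-like protein ISG15, was at 53.0, 5.29 and 12.5 against 18.8, 19.3 and 16.8 FPKM. Cxcl10, an interferon-induced chemokine, was at 21.6, 0.907 and 4.67 against 2.48, 2.54 and 1.49 FPKM, and Ly6i, a member of the Ly6 family, at 51.2, 3.86 and 3.80 against 6.07, 11.1 and 4.40. In Ifi27l2a and Usp18 the 3 cKO libraries straddled the YFP+ libraries, with replicate 1 above and replicates 2 and 3 below them. Replicate 2 had a feature of its own: Igj, the joining chain of plasma cell antibodies, was at 8.95 FPKM there and at no more than 0.188 in any other library.

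As a list, 0 of 41 tested type I interferon-stimulated genes were called by limma, and 0 had an unadjusted p under 0.05. Their median change was 0.04. Relative to the YFP+ mean, the median member lay at 1.04 in cKO replicate 1, -0.77 in replicate 2 and -0.16 in replicate 3. Without cKO replicate 1, 13 members were lower, 0 higher, and the median was -0.39, where 14.1% of all genes were called (7.52% higher and 6.58% lower). The guanylate-binding and immunity-related GTPases, effectors of interferon-induced defence, had 0 of 18 called (0 at an unadjusted p under 0.05) and 11 lower without that library. Of 27 genes of MHC class I presentation 1 was called, 3.7% against 8.93% of all genes, and 9 were lower without that library. Irgm1, one of these GTPases, shows the pattern at 47.0, 19.8 and 23.6 FPKM in cKO and 40.3, 39.3 and 42.5 in YFP+. Its adjusted p was 0.484 with all libraries and 0.000913 without cKO replicate 1. For these 3 lists, counts without each of the other libraries are not given here.

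**Figure D2:**
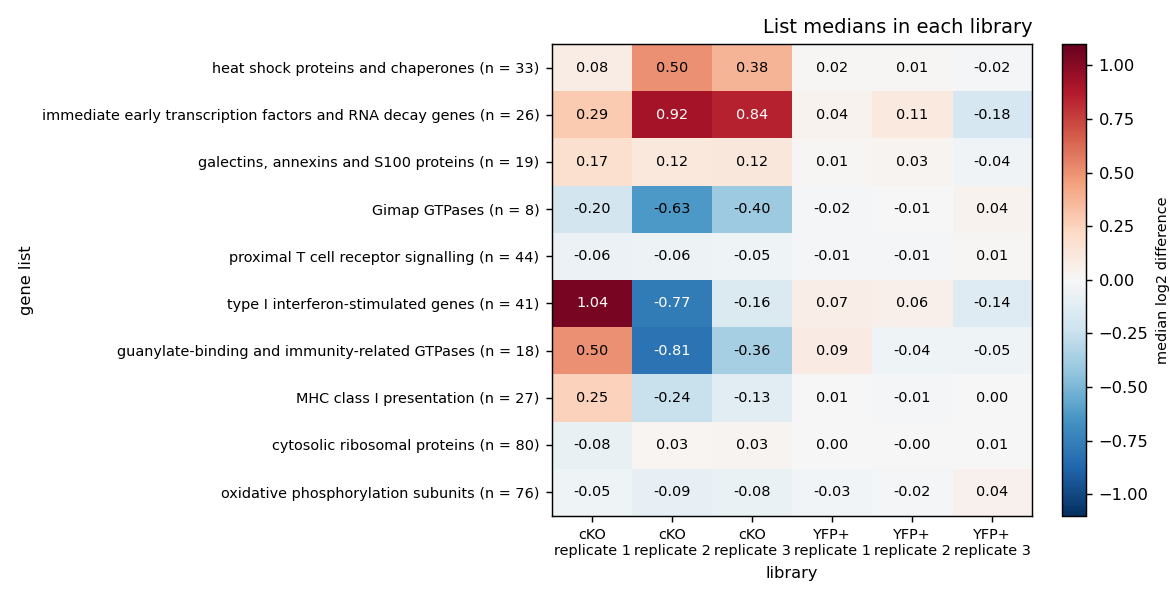
Median over the tested members of 10 gene lists (rows) of the log2 difference from the YFP+ mean, in each of the 6 libraries (columns), as colour and number. Interferon-stimulated genes lie at 1.04 in cKO replicate 1 and at -0.77 in replicate 2, whereas heat shock genes lie at 0.08 in replicate 1 and at 0.50 and 0.38 in replicates 2 and 3.

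The largest increases were in heat shock genes, the chaperones that cells make when proteins unfold. Heat shock factor drives them through repeats of the 5-base unit NGAAN in alternating orientation, and their RNA rises within minutes of stress. The 250 bases upstream of the start sites of Hspa1a, Hspa1b and Hspe1 are shown because the first and second rose most and the third carries the longest run of the motif. They are RefSeq sequences of GRCm38.p6 (chr17:34972157-34972406 and chr17:34959239-34959488 on the minus strand, chr1:55087898-55088147 on the plus strand), and capitals mark matches to GAANNTTC or TTCNNGAA.
Hspa1a: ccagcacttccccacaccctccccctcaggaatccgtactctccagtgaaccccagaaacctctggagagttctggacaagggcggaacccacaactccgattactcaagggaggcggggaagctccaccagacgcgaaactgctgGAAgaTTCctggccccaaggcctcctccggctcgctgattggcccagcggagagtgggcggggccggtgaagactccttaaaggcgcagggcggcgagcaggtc
Hspa1b: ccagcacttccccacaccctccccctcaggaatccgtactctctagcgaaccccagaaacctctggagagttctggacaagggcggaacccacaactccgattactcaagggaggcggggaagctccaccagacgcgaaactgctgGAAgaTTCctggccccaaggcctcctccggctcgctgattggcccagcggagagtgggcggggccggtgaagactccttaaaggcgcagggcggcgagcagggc
Hspe1: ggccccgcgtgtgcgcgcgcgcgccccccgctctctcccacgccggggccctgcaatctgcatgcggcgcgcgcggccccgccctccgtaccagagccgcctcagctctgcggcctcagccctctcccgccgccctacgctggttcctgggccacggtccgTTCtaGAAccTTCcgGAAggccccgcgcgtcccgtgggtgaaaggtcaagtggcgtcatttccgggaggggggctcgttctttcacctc
The Hspa1a and Hspa1b windows are identical at 247 of 250 bases, and each holds 1 match, from -104 to -97 before the start. In Hspe1, 3 matches overlap from -89 to -72, in 1 run that also lies within the window of a start site of Hspd1, its neighbour on the other strand. Of 32851 promoter windows of this length 6.69% hold GAANNTTC, 7.17% TTCNNGAA, 12.8% either and 0.466% a run of 3 units. Among tested heat shock and chaperone genes with a window in the table, 4 of 8 called and 6 of 19 uncalled genes held a match, so the letters were found in both. The match is a description of the sequence and shows no binding.

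Hspa1b, an inducible HSP70 gene, was at 108, 857 and 935 FPKM in cKO and at 7.12, 7.22 and 6.00 in YFP+. It changed by 6.02 (SE 0.74, adjusted p 0.00258). Its copy Hspa1a was at 90.7, 743 and 751 against 6.04, 6.18 and 4.79 FPKM (adjusted p 0.00265), and reads of the pair cannot be assigned to one or the other with certainty. All cKO libraries lay far above all YFP+ libraries, and within cKO replicate 1 lay far below the others. Hspa1l, whose promoter window adjoins that of Hspa1a on the opposite strand, was at 8.29, 70.0 and 66.9 against 0.888, 0.675 and 0.481 FPKM (change 4.54, adjusted p 0.00799). Its call ended without YFP+ replicate 3 (adjusted p 0.051). Whether Hspa1l collects reads of Hspa1a and Hspa1b was not tested.

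Partners of HSP70 followed with smaller changes. Dnajb1, the HSP40 that delivers clients to HSP70, was at 29.6, 88.0 and 89.3 FPKM against 21.7, 20.3 and 21.0 (change 1.70, adjusted p 0.0359). Hsp90aa1, the inducible HSP90, was at 41.5, 82.2 and 75.3 against 33.4, 35.3 and 31.1 FPKM (change 1.11, adjusted p 0.0326). In both, cKO replicate 1 sat just above the YFP+ libraries. Both calls ended when any library other than cKO replicate 1 was left out, with adjusted p of up to 0.14. The mitochondrial chaperonin pair changed less: Hspe1, HSP10, was at 13.6, 16.4 and 15.1 against 11.2, 11.1 and 11.3 FPKM (change 0.57, adjusted p 0.0105, and 0.058 without YFP+ replicate 3). Hspd1, HSP60, was at 23.6, 31.6 and 28.2 against 21.8, 22.4 and 23.4 FPKM (change 0.47, adjusted p 0.0484), a call that every fit without a library other than cKO replicate 1 ended (up to 0.16).

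Counted as a list, 10 of 33 tested heat shock and chaperone genes of the cytosol and mitochondria were higher and 0 lower, or 30.3% against the 8.93% of all genes, with a median change of 0.31 against -0.002. The call count was 6 with values as deposited and 7 with quantile normalization, none lower in either. Without cKO replicate 1 it was 21, with a median of 0.42. The constitutive members were among those added. Hspa8, the constitutive HSP70, was at 733, 1259 and 1137 FPKM against 751, 771 and 790 (adjusted p 0.117, and 0.00018 without cKO replicate 1), and Hsph1, a cofactor that exchanges HSP70's nucleotide, was at 19.9, 56.6 and 41.3 against 20.2, 22.2 and 16.6 (adjusted p 0.122, and 0.0013 without it). The gene of the driving factor itself, Hsf1, was at 19.1, 19.5 and 17.9 against 20.9, 20.4 and 20.4 FPKM (change 0.06, adjusted p 0.671). Of 28 tested genes of endoplasmic reticulum stress and folding 1 was higher and 2 lower, 10.7% against 8.93% of all genes, with a median of 0.01. Without cKO replicate 1 they were 5 higher and 1 lower.

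Immediate early genes, many of them transcription factors or RNA-decay proteins, are induced within minutes of receptor signalling. Their list also holds genes linked to quiescence, such as Klf4, so its counts are not of receptor-induced genes alone. It had the largest share of calls of the 45 function lists counted here, out of 47. The actin and clock lists are not counted. Of 26 tested members 14 were higher and 1 lower, 57.7% against 8.93% of all genes, and the median change was 0.70. With values as deposited 11 were higher and 1 lower, with quantile normalization 9 and 1, and without cKO replicate 1 17 and 1. As in the heat shock list, cKO replicate 1 lay closest to YFP+: the median member was 0.29 above the YFP+ mean there, against 0.92 and 0.84 in replicates 2 and 3.

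Klf4, a zinc-finger factor linked to T cell quiescence, was at 2.92, 5.34 and 5.29 FPKM against 0.799, 1.59 and 0.523 (change 1.61, SE 0.26, adjusted p 0.0081). Ier3, a survival gene of the immediate early class, was at 4.76, 2.78 and 3.61 against 1.13, 1.12 and 0.843 FPKM (change 1.32, adjusted p 0.00161), with cKO replicate 1 highest. Ier2, a nuclear immediate early protein, was at 132, 169 and 163 against 100.1, 107 and 97.3 FPKM (change 0.79, adjusted p 0.00672). These calls were kept in every fit without 1 library, and in none of the genes did the groups overlap.

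The AP-1 subunits were more dependent on single libraries. Fosb was at 3.72, 13.7 and 12.6 FPKM against 0.817, 1.11 and 0.428 (change 2.60, adjusted p 0.00867), and its call ended without YFP+ replicate 3 (0.055). Fos was at 36.0, 70.7 and 69.7 against 18.1, 22.5 and 6.46 FPKM (change 2.12, adjusted p 0.028), and its call was lost when YFP+ replicate 1 or either of cKO replicates 2 and 3 was left out (up to 0.096). Jun was at 28.7, 80.5 and 79.3 against 21.0, 27.1 and 12 FPKM and missed the threshold (adjusted p 0.0532), though not without cKO replicate 1 (0.0021). YFP+ replicate 3 was the lowest library in all 3 genes. The 1 member called lower was Egr2, which responds to T cell receptor signalling, at 1.02, 0.844 and 1.13 against 2.16, 2.73 and 3.27 FPKM (change -0.76, adjusted p 0.00766), and its relative Egr1 was at 2.84, 4.88 and 4.33 against 4.86, 4.36 and 3.90 (change 0.04, adjusted p 0.925). Nr4a1, another receptor-responsive gene, was at 1.38, 8.66 and 8.12 against 1.65, 1.72 and 1.26 FPKM, so that cKO replicate 1 lay within the YFP+ range and replicates 2 and 3 far above it (adjusted p 0.153, and 7.1e-05 without cKO replicate 1).

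**Figure D3:**
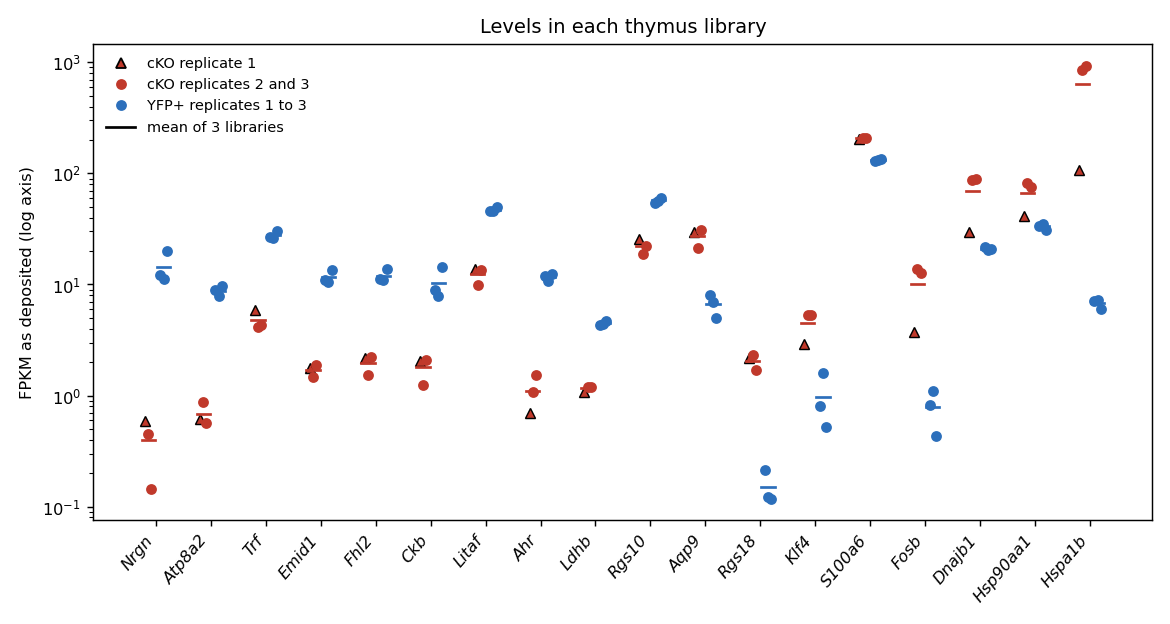
FPKM as deposited (log y axis) of 18 genes in each of the 6 libraries, cKO in red with cKO replicate 1 as a black-edged triangle, YFP+ in blue, and bars at the mean of 3 libraries. In the lower genes at the left, such as Nrgn and Ahr, all 3 cKO values lie far below the YFP+ values, and in Dnajb1, Hsp90aa1 and Hspa1b replicate 1 lies well below replicates 2 and 3.

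Feedback inhibitors of these pathways moved both ways. Of 14 tested MAP kinase phosphatases and Ras or Sprouty inhibitors 4 were higher and 3 lower (1 and 5 with values as deposited). Dusp6, a phosphatase of ERK, was at 6.68, 10.0 and 10.8 FPKM against 5.71, 5.77 and 4.63 (change 0.83, adjusted p 0.0331). Dusp2, a phosphatase of activated T cells, was lower at 150, 178 and 225 against 293, 333 and 321 FPKM (change -0.59, adjusted p 0.0407). Neither call was stable: that of Dusp6 ended without any library other than cKO replicate 1 (up to 0.13), and that of Dusp2 without cKO replicate 2 or any YFP+ replicate (up to 0.13). Of 25 NF-kappaB subunits and regulators 4 were higher and 1 lower (2 and 2 with values as deposited). Nfkbia, the inhibitor that NF-kappaB itself induces, was at 104, 162 and 162 against 84.7, 92.2 and 85.7 FPKM (change 0.87, adjusted p 0.0262, up to 0.12 without any library other than cKO replicate 1). Birc3, a ubiquitin ligase of the same pathway, was lower at 6.26, 5.40 and 6.46 against 9.47, 9.86 and 10.9 FPKM (change -0.48, adjusted p 0.00826), a call that no left-out library ended.

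Downstream of the T cell receptor, several signalling genes were lower in cKO cells, 1 of them almost to background. Nrgn encodes neurogranin, which holds calmodulin at low calcium and is best known from neurons. It was at 0.594, 0.449 and 0.144 FPKM in cKO and at 12.3, 11.1 and 20.1 in YFP+ (change -3.32, SE 0.20, adjusted p 0.000118). Camk4, a calmodulin-dependent kinase, was at 0.461, 0.617 and 0.828 against 2.39, 1.83 and 2.63 FPKM (change -0.90, adjusted p 0.00611). In both genes every cKO library lay below every YFP+ library, and in Nrgn cKO replicate 3 was the lowest. These were the 2 called genes of 31 tested in calcium and calmodulin signalling, 6.45% against 8.93% of all genes. The median change of that list was 0.06.

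Of 44 tested genes of proximal T cell receptor signalling 11 were lower and 2 higher, 29.5% against 8.93% of all genes. The median was -0.09. The count was 19 lower and 1 higher with values as deposited, 15 and 2 with quantile normalization, and 12 and 2 without cKO replicate 1. The lower genes included adaptors, phosphatases, kinases and a guanine exchange factor, and none of the CD3 chains was called. Sh2d1a, the adaptor SAP, was at 11.4, 10.6 and 11.8 FPKM against 19.5, 20.1 and 23.1 (change -0.64, adjusted p 0.00118). A pair of exchange factors that activate small GTPases after receptor signalling went opposite ways. Rasgrp2, which acts on Rap1, was higher at 31.7, 36.4 and 37.9 against 20.9, 23.2 and 20.3 FPKM (change 0.88, adjusted p 0.00203). Rasgrp1, which acts on Ras, was lower at 20.2, 16.9 and 18.8 against 27.5, 26.6 and 32.2 FPKM (change -0.41, adjusted p 0.0137), a call that ended without YFP+ replicate 1 or YFP+ replicate 3 (up to 0.058). Dgka, a kinase that consumes diacylglycerol, the activator of Rasgrp1, was higher at 93.0, 79.8 and 91.5 against 67.0, 72.1 and 63.4 FPKM (change 0.57, adjusted p 0.00517).

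Regulators of G protein signalling, which end the signals of chemokine and lipid receptors, also split. Rgs18 was at 2.17, 2.31 and 1.70 FPKM in cKO and at 0.214, 0.121 and 0.118 in YFP+ (change 1.48, SE 0.12, adjusted p 0.000349). Rgs10 was at 25.4, 18.8 and 22.4 against 54.0, 56.9 and 60.6 FPKM (change -1.14, adjusted p 0.000226). Ramp1, a subunit of the receptor for the neuropeptide CGRP, was at 0.718, 0.290 and 0.635 against 3.28, 2.95 and 5.19 FPKM (change -1.51, adjusted p 0.00177). No library of one group reached the range of the other in these genes. Of 25 tested members 3 were higher and 3 lower (1 and 6 with values as deposited). Pde4d, which breaks down cyclic AMP, was among the lower ones at 0.604, 0.601 and 0.608 against 2.07, 1.60 and 1.86 FPKM (change -0.72, adjusted p 0.00567). None of 11 purinergic and adenosine signalling genes was called by limma, with 3 lower at an unadjusted p under 0.05 and 2 lower with values as deposited.

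Membrane transport and lipid asymmetry held some of the largest decreases. Atp8a2, a flippase that moves phosphatidylserine to the inner leaflet, was at 0.613, 0.869 and 0.566 FPKM against 8.92, 7.81 and 9.71 (change -2.41, SE 0.11, adjusted p 3.32e-05). Its relative Atp9a was at 0.584, 0.321 and 0.440 against 2.56, 2.45 and 3.44 FPKM (change -1.29, adjusted p 0.000679). Atp8a1 was also lower (change -0.52, adjusted p 0.024), but without cKO replicate 2 or any YFP+ replicate its call ended (up to 0.098). The other 10 of 13 tested flippases and scramblases were not called, so the called share was 23.1% against 8.93% of all genes. The median was -0.01. Aqp9, a channel for water and glycerol, was higher at 29.5, 21.3 and 31.0 against 8.06, 7.00 and 4.98 FPKM (change 2.06, SE 0.19, adjusted p 0.000571). In Atp8a2, Atp9a and Aqp9, whose calls no left-out library ended, cKO replicate 1 lay with the other cKO libraries.

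Several surface and matrix genes changed as well. Emid1, a secreted protein with an EMI domain, was at 1.76, 1.47 and 1.86 FPKM against 11, 10.5 and 13.5 (change -2.07, SE 0.10, adjusted p 3.32e-05). Emb, embigin, an immunoglobulin-family partner of monocarboxylate transporters, was at 0.856, 0.982 and 1.56 against 7.64, 7.6 and 8.79 FPKM (change -1.95, adjusted p 0.000149). Itgb3, the integrin beta 3 chain, was lower at 0.264, 0.703 and 0.343 against 2.88, 2.50 and 3.44 FPKM (change -1.35, adjusted p 0.00141). Itgb1, the beta 1 chain shared by many matrix receptors, was higher at 68.4, 63.6 and 65.3 against 49.3, 51.0 and 50.4 FPKM (change 0.57, adjusted p 0.0008). The groups did not overlap in any of these, and within cKO the values of Itgb3 and Emb were more spread than those of Emid1 and Itgb1. Nrp1, neuropilin, a receptor for semaphorins, was lower at 0.746, 0.705 and 0.874 against 3.71, 3.45 and 3.94 FPKM (change -1.28, adjusted p 0.0002). Nrp1 was chosen after its values were seen.

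Several calcium-binding and lectin proteins of effector cells were higher. Of 19 tested galectins, annexins and S100 proteins 6 were higher and 1 lower, 36.8% against 8.93% of all genes, with a median of 0.11. With values as deposited 5 were higher and 2 lower, with a median of -0.08. S100a6, a calcium-binding protein of the S100 family, was at 206, 207 and 209.6 FPKM against 129, 132 and 134 (change 0.85, SE 0.06, adjusted p 0.000131). S100a4, linked to cell motility, was at 34.1, 43.7 and 45.0 against 22.3, 24.5 and 21.6 FPKM (change 1.0, adjusted p 0.00332). Lgals1, galectin-1, was at 147, 172 and 164 against 98.6, 114 and 118 FPKM (change 0.74, adjusted p 0.00283), and Anxa1, annexin A1, at 44.4, 30.6 and 37.8 against 24, 21.4 and 19.0 (change 0.96, adjusted p 0.00478). All 4 calls were kept in every fit without 1 library. The Gimap GTPases, which support survival of resting T cells, were all 8 at negative changes and 4 of 8 were called lower, against 3.96% of all genes. The count was 6 with values as deposited, 5 with quantile normalization and 6 without cKO replicate 1. Over all genes the lower shares in these fits were 13.1%, 4.74% and 6.58%. Gimap4 was at 20.2, 10.3 and 12.5 against 27.5, 26.5 and 30.0 FPKM (change -0.79, adjusted p 0.0389), with cKO replicate 1 nearest to YFP+. Its call and those of Gimap5 and Gimap6 ended without any library other than cKO replicate 1, and that of Gimap1 without any other than cKO replicate 1 or YFP+ replicate 2 (up to 0.15).

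Glycan enzymes and vesicle fusion proteins changed in both directions. Mgat4b, which starts a branch of N-linked glycans, was at 9.47, 9.19 and 9.51 FPKM against 4.25, 4.71 and 5.32 (change 1.02, SE 0.08, adjusted p 0.000239). St6galnac3, which adds sialic acid to N-acetylgalactosamine, was lower at 1.1, 0.687 and 0.741 against 3.90, 3.03 and 4.0 FPKM (change -1.21, adjusted p 0.000988). Of 38 tested glycosyl- and sulfotransferases 4 were higher and 3 lower, 18.4% (2 and 10 with values as deposited). Of 32 exocytosis genes 4 were higher and 1 lower, 15.6% (3 and 4 with values as deposited). Over all genes 8.93% were called. Stx1a, a syntaxin of regulated secretion, was at 2.45, 2.68 and 2.40 against 1.27, 1.48 and 1.20 FPKM (change 0.73, adjusted p 0.00517), and Rab3d, a GTPase of secretory granules, at 11.9, 11.6 and 13.1 against 8.85, 8.0 and 9.81 (change 0.60, adjusted p 0.0044). In lysosomes, Mcoln2, a calcium channel, was higher at 3.57, 2.47 and 2.40 against 1.28, 0.989 and 0.580 FPKM (change 1.08, adjusted p 0.00736), and Lgmn, the protease legumain, lower at 0.572, 0.547 and 0.772 against 4.10, 3.15 and 3.73 (change -1.40, adjusted p 0.000387). Actn1, the crosslinker alpha-actinin, was lower at 0.323, 0.361 and 0.549 against 2.17, 2.65 and 2.09 FPKM (change -1.13, adjusted p 0.00132).

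**Figure D4:**
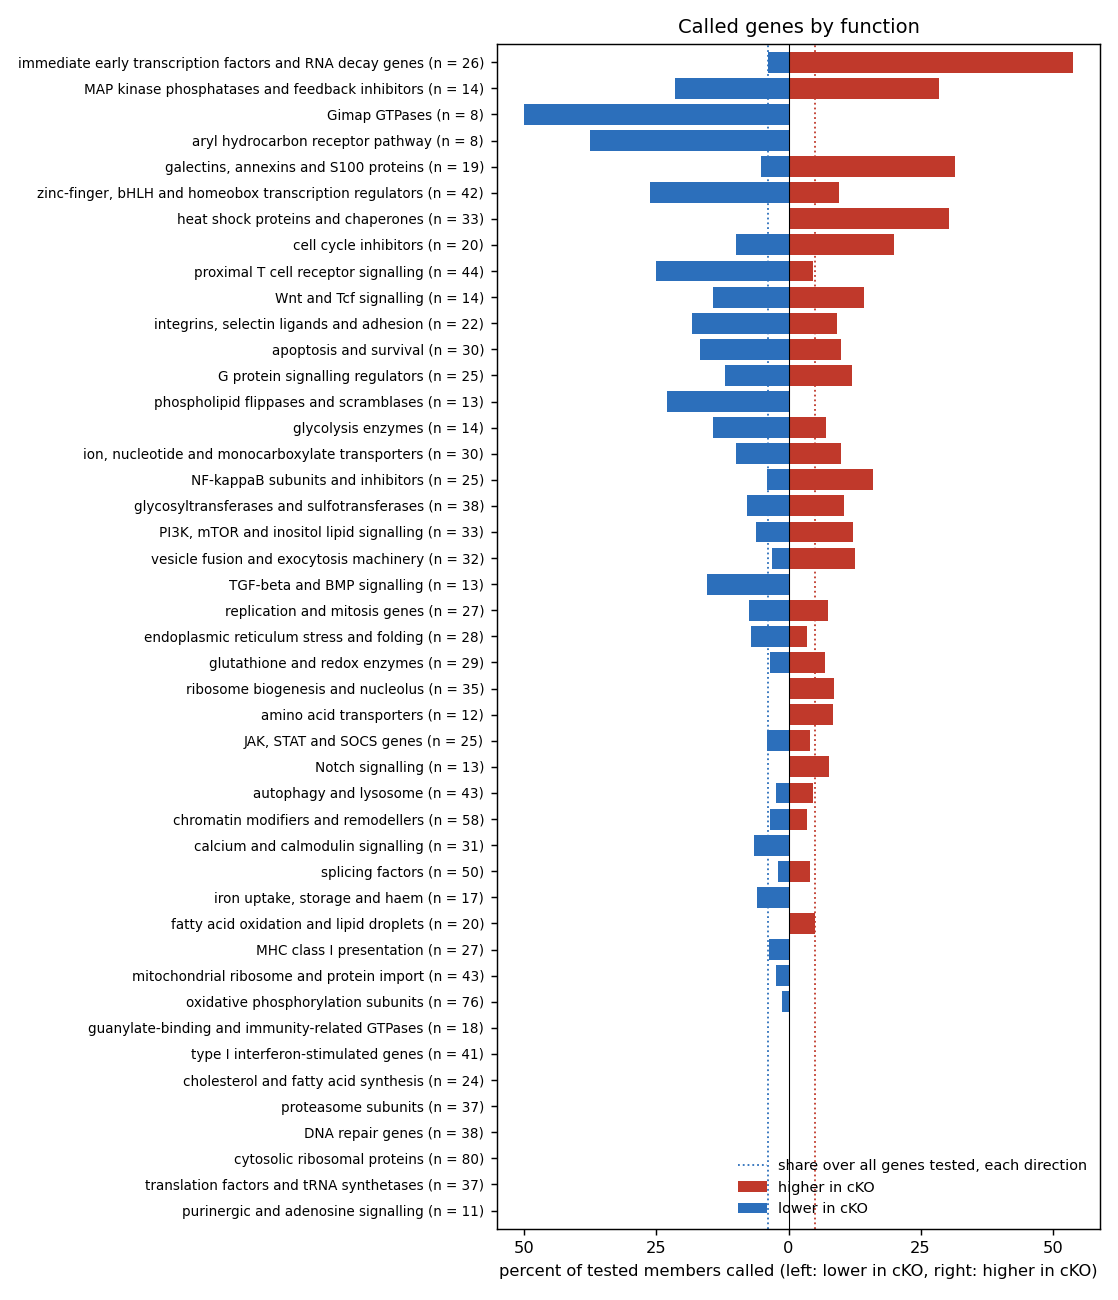
Percent of the tested members of 45 of the 47 function lists that were called higher (red, right) or lower (blue, left) in cKO. The actin and clock lists are left out. The number tested is in brackets, and dotted lines lie at 4.97% higher and 3.96% lower, the shares over all genes. Immediate early genes reach 14 of 26 higher and Gimap genes 4 of 8 lower, and the lists at the bottom have no called member.

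In ligand sensing and metabolism a few genes changed by large amounts. Ahr, the aryl hydrocarbon receptor, a sensor of dietary and microbial ligands, was at 0.700, 1.08 and 1.54 FPKM against 12, 10.6 and 12.3 (change -2.46, SE 0.15, adjusted p 0.000118). Of its partners and relatives, Hif1a, the hypoxia factor, was lower at 8.19, 7.66 and 7.92 against 12.9, 11.7 and 13.8 FPKM (change -0.45, adjusted p 0.00807), while the partner Arnt was at 2.40, 2.23 and 2.09 against 3.34, 3.16 and 2.89 (adjusted p 0.252). Tiparp, a gene induced through the receptor, was at 3.55, 5.61 and 5.74 against 3.59, 2.99 and 2.22 FPKM (adjusted p 0.0667, and 0.0072 without cKO replicate 1). Activity of the receptor was not tested. Of 8 tested genes of the pathway 3 were lower and 0 higher, 37.5% against 8.93% of all genes, with a median of -0.14. The 3 were Ahr, Hif1a and Arntl, which is also read as a clock gene below. Without cKO replicate 1, 3 were lower and 2 higher.

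Trf, the iron carrier transferrin, was at 5.92, 4.16 and 4.33 FPKM in cKO and at 26.5, 26.0 and 30.3 in YFP+ (change -2.14, SE 0.10, adjusted p 4.21e-05). It was the 1 called gene of 17 tested in iron uptake and haem, 5.88% against 8.93% of all genes. Ckb, the brain-type creatine kinase, which buffers ATP, was at 2.04, 1.26 and 2.1 against 8.90, 7.85 and 14.2 FPKM (change -1.84, adjusted p 0.00107). Ldhb, the lactate dehydrogenase chain that favours lactate use, was at 1.08, 1.20 and 1.20 against 4.36, 4.38 and 4.72 FPKM (change -1.21, adjusted p 0.0002). The groups were several-fold apart in each of these, with cKO replicate 1 among the other cKO libraries. Of the remaining 13 glycolysis enzymes tested 1 was higher and 1 lower. With Ldhb, 21.4% of the list was called against 8.93% of all genes, and the list median was 0.02. Gapdh was at 173, 159 and 171 against 175, 184 and 182 FPKM (adjusted p 0.356).

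Respiration, translation and protein turnover showed little difference beyond scaling. Of 76 oxidative phosphorylation subunits 1 was lower and 0 higher (14 lower with values as deposited, 5 with quantile normalization), with a median of -0.07. Limma called 0 of 80 cytosolic ribosomal protein genes, with 2 higher and 3 lower at an unadjusted p under 0.05, but 19 were lower with values as deposited and 17 with quantile normalization, so this count rests on the scaling. It called 0 of 37 translation factors and tRNA synthetases (3 higher and 0 lower at an unadjusted p under 0.05, 1 lower with values as deposited) and 0 of 37 proteasome subunits (0 at that unadjusted p, 2 lower with values as deposited, 3 lower without cKO replicate 1). It also called 0 of 24 cholesterol and fatty acid synthesis genes (2 higher and 3 lower at that unadjusted p, 1 lower with values as deposited, 2 higher and 2 lower without cKO replicate 1) and 0 of 38 DNA repair genes (3 lower at that unadjusted p, 6 lower with values as deposited). Each of these shares lies under the 8.93% of all genes.

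Transcription regulators formed one of the lists with more downward calls. Of 42 tested zinc-finger, helix-loop-helix and homeobox regulators 11 were lower and 4 higher, 35.7% against 8.93% of all genes. The counts were 13 and 2 with values as deposited and 11 and 4 with quantile normalization. Ikzf2, the Ikaros-family factor Helios, was at 0.596, 0.409 and 0.514 FPKM against 3.42, 3.62 and 3.48 (change -1.47, SE 0.10, adjusted p 0.000131). Its relative Ikzf3, Aiolos, was at 19.0, 15.7 and 16.1 against 35.7, 37.8 and 43.4 FPKM (change -0.97, adjusted p 0.000295). Id3, an inhibitor of E proteins, was at 7.09, 6.31 and 6.47 against 14.6, 18.2 and 20.1 FPKM (change -1.1, adjusted p 0.000495), and Gfi1, a repressor, at 0.616, 0.342 and 0.266 against 1.87, 1.85 and 2.71 (change -1.06, adjusted p 0.00335). Klf3, a repressor of the Kruppel-like family, was higher at 45.5, 42.4 and 33.8 against 26.6, 25.9 and 22.6 FPKM (change 0.86, adjusted p 0.00578). Fhl2, a LIM-domain coregulator, was at 2.17, 1.52 and 2.23 against 11.2, 11.1 and 13.9 FPKM (change -1.98, adjusted p 0.000105), and Litaf, a regulator of endosomal sorting and of TNF transcription, at 13.9, 9.80 and 13.5 against 46.2, 46.1 and 49.7 (change -1.68, adjusted p 0.000118). Zbtb16, PLZF, was lower at 3.15, 3.84 and 4.27 against 11, 12.2 and 13.5 FPKM (change -1.31, adjusted p 0.000453). None of these calls ended with a library left out, and no group overlapped.

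The partner factors of Wnt signalling divided. Lef1 was lower, at 6.59, 4.87 and 6.37 FPKM against 21.5, 23.8 and 25.6 (change -1.65, adjusted p 0.000118), and its relative Tcf7, TCF-1, was higher, at 84.0, 87.9 and 90.5 against 64.5, 68.9 and 68.5 (change 0.57, adjusted p 0.00192). Tle4, a corepressor of both, was lower at 16.2, 14 and 16.7 against 26.3, 25.5 and 29.3 FPKM (change -0.57, adjusted p 0.00283). Dtx1, a ubiquitin ligase and target of Notch, was higher at 41.8, 28.5 and 26.2 against 15.6, 17.2 and 16.6 FPKM (change 1.09, adjusted p 0.00363). It was the 1 called gene of 13 tested in Notch signalling, 7.69% against 8.93% of all genes. In TGF-beta signalling Tgfbr3, a coreceptor, was at 0.656, 0.859 and 0.994 against 5.72, 4.89 and 5.58 FPKM (change -1.67, adjusted p 0.000139), and Skil, a repressor of the pathway's SMAD proteins, was also lower (change -0.60, adjusted p 0.00671). Among clock genes, Rora, a nuclear receptor that drives the core clock gene Arntl, was at 1.42, 2.25 and 1.82 against 5.93, 6.03 and 6.12 FPKM (change -1.17, adjusted p 0.00147). Arntl, BMAL1, was at 1.0, 0.996 and 1.58 against 2.85, 2.83 and 3.65 FPKM (change -0.78, adjusted p 0.0106, and 0.057 without YFP+ replicate 3). Nfil3, another gene of the clock list, was higher at 5.11, 8.78 and 10.4 against 4.385, 4.18 and 3.48 FPKM (change 0.98, adjusted p 0.0389). Its call ended without any library other than cKO replicate 1 (up to 0.16). No count over the clock list is given here, so the genes named do not describe it as a whole. The sources used here do not give the hour at which mice were taken.

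Survival and cell cycle genes were mixed. Of 30 tested apoptosis genes 5 were lower and 3 higher (7 lower and 0 higher with values as deposited), 26.7% against 8.93% of all genes. The Bcl2a1 genes, antiapoptotic relatives of Bcl2, made up 3 of the 5. Bcl2a1b was at 56.9, 48.6 and 53.0 FPKM against 118, 114 and 129 (change -0.98, SE 0.06, adjusted p 0.000118), and Bcl2a1a and Bcl2a1d changed by -1.13 each. They are near-identical copies, so these are not separate measurements. Bcl2 itself was at 15.6, 24.8 and 25.5 against 20.2, 20.1 and 21.6 FPKM, with cKO replicate 1 below the YFP+ range and replicates 2 and 3 above it (adjusted p 0.484, and 0.00195 without cKO replicate 1). Rb1, the brake on entry into S phase, was lower at 4.53, 5.27 and 4.46 against 9.23, 8.29 and 9.15 FPKM (change -0.61, adjusted p 0.0081), and Ccnd3, a cyclin that acts against it, was higher at 26.4, 26.2 and 25 against 20.2, 20.3 and 20.4 (change 0.52, adjusted p 0.00261). Rb1 is 1 of 20 tested cell cycle inhibitors, of which 4 were higher and 2 lower (2 and 4 with values as deposited). That is 30.0% against 8.93% of all genes, with a median of 0.06. Other inhibitors went the opposite way to Rb1: Tob1, Gadd45b and Cdkn1b were called higher (changes 0.755, 0.878 and 0.44). Each of these upward calls ended without some of the libraries. Of 27 replication and mitosis genes 2 were higher and 2 lower (1 and 8 with values as deposited), 14.8% against 8.93% of all genes, with a median of -0.14. Ccnd3 is 1 of the 2 higher members. Tsc22d3, the glucocorticoid-induced factor GILZ, was at 33.3, 115 and 124 against 66.5, 69.4 and 82.7 FPKM, again with cKO replicate 1 on the other side of YFP+ from its fellow replicates (adjusted p 0.746, and 0.00018 without cKO replicate 1).

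Multicopy families and short RNA entries need separate reading. Of 21 tested genes whose symbol starts with Klra 17 were higher and 0 lower, and of 5 Speer genes 4 were higher. Over all genes 4.97% were higher. The Klra symbols are those of the Ly49 receptors, except for Klraq1, which is not of that family (change -0.03, not called). Members of each family are close copies that share reads, so they are not separate measurements. Klra7 was at 263, 251 and 225 FPKM against 29.1, 28.7 and 33.0, the widest gap relative to its spread (change 3.17, SE 0.07, adjusted p 9.66e-07). Klra17 was high in cKO replicate 1 alone, at 14.3, 3.31 and 2.42 against 1.76, 1.67 and 2.12 FPKM (adjusted p 0.171). Of 166 tested microRNA and small nucleolar or Cajal body RNA entries 16 were called, 11 higher and 5 lower, a share near the 8.93% of all genes. Such entries can collect reads of the gene they lie in, and 6 called microRNA entries lie inside a tested gene in RefSeq. Mir1901 lies in Cables1, and both were lower (changes -2.1 and -1.16). Mir1903 lies in Nrp1 (-1.72 and -1.28) and Mir1904 in Pde4d (-1.98 and -0.72), again with both lower. Mir207 in the HSP40 gene Dnaja1 was higher by 1.85, and the host was at 0.71 with an adjusted p of 0.0617. The call of Mir207 was lost when cKO replicate 2 or 3, or YFP+ replicate 1 or 3, was left out (up to 0.11). Mir1894 in Ppp1r10 and Mir3091 in Rps21 were higher by 1.24 and 0.79 with hosts at -0.003 and 0.07. RNA of the mature microRNAs cannot be told apart from that of the hosts here.

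Markers of the sorted cells and of other cell types were read as summed FPKM as deposited. The 12 T and NKT identity genes summed to 1439 to 1501 in cKO and 1679 to 1872 in YFP+ libraries. These sums are of values as deposited, before scaling, and after scaling the median change of the list was -0.05, with 2 members higher and 1 lower. Among DP thymocyte markers, Cd4 was at 0.261, 0.641 and 0.386 against 1.85, 3.42 and 3.35 FPKM (change -1.31, adjusted p 0.00516). Cd1d1, the molecule that presents lipids to NKT cells, was at 6.66, 6.32 and 5.1 against 9.80, 10.2 and 12.9 FPKM (change -0.59, adjusted p 0.0181), a call that ended without YFP+ replicate 2 or 3 (up to 0.075). Rag1, Rag2, Arpp21 and Cd8a were near 0 everywhere and were not tested, so they do not describe the DP markers as a set. No sum or count over the DP thymocyte markers is given here. NK cell markers summed to 208 to 249 against 227 to 242 FPKM, with members that went opposite ways. Klre1, an NK receptor, was at 123, 113 and 107 against 51.1, 50.6 and 47.4 FPKM (change 1.38, adjusted p 9.45e-05). Gzma, granzyme A, was at 58.8, 77.7 and 43.6 against 108, 109 and 112 FPKM (adjusted p 0.061). The 3 gamma-delta T cell markers summed to 11.5 to 13.2 against 10.3 to 13.3. The 16 markers of thymic epithelium and stroma summed to at most 3.27 FPKM in any library, with Krt5 at 0 in all 6. Myeloid markers summed to 81.0 to 124 against 118 to 132, with S100a8 at 0 in all 6, and most of that sum was Fcer1g, which NK-like T cells also express, and Cst3. Fcer1g was at 86.5, 43.5 and 44.1 against 75.4, 73.5 and 75.8 FPKM, so cKO replicate 1 differed from its fellows here too. Erythroid markers summed to 0.472 to 108 FPKM in cKO and 0.570 to 1.29 in YFP+ libraries. Their part in the differences above was not tested, apart from the values without cKO replicate 1.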

How the data were processed

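Total RNA of sorted thymic NKT cells was amplified as cDNA (SMARTer Ultra Low Input) and sequenced from TruSeq or ThruPLEX libraries, per the labels' protocols. These protocols assign no kit to single libraries. The authors deposited FPKM per gene in a table of their own for the thymus. Per the submitters' processing notes the tools were TopHat2 2.8.0 and Cufflinks 2.1.1 on mm9. The sources used here do not give strand use, so genes that overlap, antisense ones included, cannot be told apart. FPKM divide by transcript length and mapped total, so abundant RNAs of 1 library lower its other values. Groups came from the titles, and 0 columns were left unmapped.

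Libraries were scaled by median ratios (factors 0.901 to 1.12), and log2(FPKM + 1) of the 9097 genes with a mean of at least 1 was fitted with limma 3.58.1 (trend) in R 4.3.3, with Benjamini-Hochberg adjustment at 0.05. The fit was tested on simulated data. A library's FPKM summed to 187828 to 212688, with 4033 to 5740 genes at 0, which can be failed estimates. The commonest ratio of low values (0.015 to 0.1 FPKM) to those in cKO replicate 1 was 0.889 to 1.04. The text names the 20 largest increases and decreases, up to 4 called genes of each list, the 10 most abundant, the genes at which cKO replicate 1 lay farthest above (12) or below (6) the others, and Rag1, Rag2, Zbtb16 and Cd1d1. Increases, decreases, list members and abundant genes were taken from called genes whose groups did not overlap, a condition that all 812 met. Not all are described. Arnt, Bcl2, Cables1, Cst3, Dnaja1, Egr1, Egr2, Fcer1g, Gapdh, Gzma, Hsf1, Hsp90aa1, Hspa8, Hspd1, Hspe1, Hsph1, Ier2, Ifi27l2a, Igj, Ikzf3, Irgm1, Jun, Klf3, Mir1894, Mir3091, Nr4a1, Nrp1, Ppp1r10, Rasgrp1, Rps21 and Tiparp were added after their values were seen. The comparison, the lists and the rule were chosen with earlier results of these data known. Lists are described by counts and medians, with no test. Results that involve certain genes are not reported here. Promoter windows came from RefSeq (GRCm38.p6), and 6 tested heat shock genes had none. Alternatives were 15: values as deposited, quantile normalization, a pseudocount of 0.1, minimum means of 0.1 and 5 or no minimum, array weights, no variance trend, a replicate block and 6 fits without 1 library.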

Additional observations from a re-analysis of the deposited data

How the results depend on the processing

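No alternative reversed the sign of a called gene that both fits called. Compared with 812 calls (452 higher, 360 lower), values as deposited gave 1429 (240 higher, 1189 lower), of which 599 were shared. No minimum level gave 271 higher and 305 lower, and array weights 671 higher and 543 lower. Leaving out 1 library gave 349 to 1283 calls, 189 to 684 higher and 160 to 599 lower, with 1283 without cKO replicate 1 and 349 without YFP+ replicate 3. Upward calls were 55.7% of all calls, against 48.3% with quantile normalization, 49.8% with a minimum mean of 0.1 and 47.0% with no minimum. With a pseudocount of 0.1, an alternative chosen after seeing the data for this count, cKO replicate 1 stood apart at 54 genes in place of 31, and the other libraries at 6 to 31. A replicate block gave 569 calls, 539 of them shared. The deviations of libraries with the same number correlated at 0.003, 0.005 and -0.047, so no shared deviation by number was seen. With 3 libraries in each group this cannot exclude that the samples were paired. Of 177 named called genes, 4 lost the call without cKO replicate 1, and 53 to 77 did without another library. The cause was not tested, except that fits without a library have fewer samples. Absolute depth is unknown, so no counting interval can be given for low genes.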
